A study of Arabidopsis thaliana with 12 samples.

Results

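Of 60 loci that encode cytosolic ribosomal proteins of Arabidopsis thaliana and were listed by name, 45 had a probe set paired with that gene and no other, and these are described here as measured. They comprised 27 of 37 listed genes of the small subunit and 18 of 23 of the large subunit, and came from 19 of 24 listed proteins. The 15 others, among them every listed gene of Sa, S5, S6, L3 and L5, could not be paired and were not read, and all 15 carry a symbol of their own in the annotation table, whereas 44 of the 45 measured genes appear there under their locus code. The 45 genes had 46 probe sets out of 38408 on the array, since AT2G40010 had a pair, of which the one with the higher mean stood for the gene.

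The ribosome translates messenger RNA into protein. Its small subunit binds the message and decodes it, its large subunit joins the amino acids, and plants encode nearly every ribosomal protein by a small family of paralogous genes. The kinase TOR, with its partner RAPTOR, promotes ribosome production when sugars and nutrients are available, and in plants it is known to favour the translation and, for some genes, the transcription of ribosomal proteins.

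Whole seedlings of ecotype Col-0 were pooled and their total RNA was hybridised to 12 Affymetrix Gene 1.0 ST arrays, in 4 groups of 3 that the labels call biological replicates. The groups were rb10 after light, WT after light, rb10 in the dark and WT in the dark. In every group the seedlings spent 5 days in darkness on half-strength, sucrose-free MS medium, and the light groups then received 1 h of white light at 120 µmol per square metre per second. The labels do not say what rb10 is. It is known from the study as a RAPTOR1B mutant, and the sources used here do not state how the mutation was made or how many lines were pooled. Values are deposited log2 signals. A change is the difference between 2 group means of log2 signal, given with its standard error (SE) from a limma fit over the 12 arrays, and a gene rose or fell where its p, adjusted by Benjamini-Hochberg over 17481 probe sets paired with a gene, was under 0.05. Such p-values reflect the spread between the 3 pools of a group, shared over all 4 groups and drawn in part from all tested probe sets. Leaving out a dark array can thus move the calls after light. In whole seedlings, fewer cells of a type and less RNA per cell cannot be told apart.

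RAPTOR1 (AT3G08850, also called RAPTOR1B) read 10.9, 10.89 and 11.13 in rb10 after light, against 11.62, 11.69 and 11.58 in WT after light. In the dark it read 11.06, 11.08 and 11.6 in rb10, against 11.84, 11.66 and 11.63 in WT. The array labelled rb10 dark replicate 3 thus read like a WT array for this gene, and over all probe sets its mean correlation was 0.9796 with its own group and 0.9909 with the WT dark arrays, whereas the arrays labelled rb10 dark replicates 1 and 2 correlated with WT dark at 0.9792 and 0.9785. It was kept under its label, and results that rest on it are given with and without it. RAPTOR1 changed by -0.66 after light (SE 0.15, adjusted p = 0.0113) and by -0.46 in the dark (SE 0.15, adjusted p = 0.255), or by -0.64 in the dark without that array (SE 0.11, adjusted p = 0.00775). RAPTOR2 (AT5G01770, also called RAPTOR1A) changed by -0.01 after light (SE 0.13, adjusted p = 0.977) and by -0.12 in the dark (SE 0.13, adjusted p = 0.714). Array medians were 6.88 to 6.91 on 5 of the rb10 arrays, 6.78 on rb10 dark replicate 3 and 6.72 to 6.82 on the WT arrays, so a change depends in part on how arrays are scaled, and the main counts are also given with all arrays set to equal medians. Of 12 organ and cell type markers 2 were measured, too few to check the tissue label: FAMA of guard cells changed by 0.04 between genotypes after light (SE 0.34, adjusted p = 0.958) and by 0.11 in the dark (SE 0.34, adjusted p = 0.904), and EXPA7 of root hairs read 4.85 to 6.14.

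With the values as deposited, the ribosomal protein genes stood higher, by their median, on every rb10 array than on any WT array. Rb10 dark replicate 3 was the closest to WT. The differences in array medians were left in, so these gaps depend in part on scaling. After each gene was centred on its mean over the 12 arrays, the median over the 45 genes was 0.17, 0.16 and 0.12 on the rb10 light arrays, against -0.09, -0.22 and -0.16 on the WT light arrays. In the dark it was 0.14, 0.19 and -0.01 on the rb10 arrays, against -0.14, -0.12 and -0.07 on the WT arrays. No rb10 array fell within the range of the WT arrays by this measure, and rb10 dark replicate 3 lay between the other rb10 arrays and the WT arrays. Its gap to the nearest WT array was smaller than the pooled SD of this median between replicate arrays, 0.066. On rb10 dark replicate 3, 20 of the 45 genes exceeded their own mean, against 34 to 41 on the other rb10 arrays and 2 to 13 on the WT arrays. The genes were mostly bright: 26 had a mean signal above 9.35, the upper quartile of all tested probe sets, and 2 lay under the lower quartile of 4.61.

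**Figure D1:**
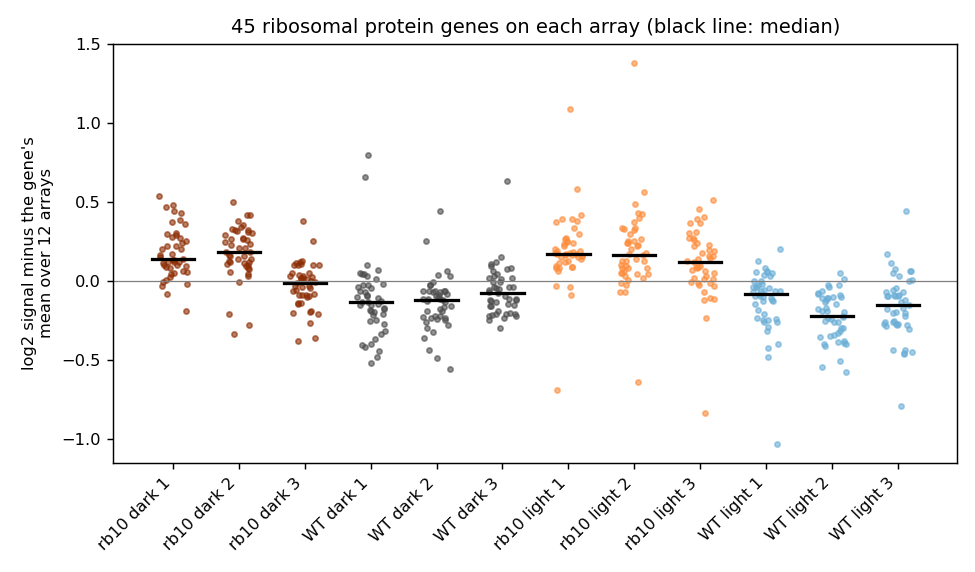
Each point is 1 of the 45 ribosomal protein genes on 1 array, as its log2 signal minus its own mean over the 12 arrays (vertical axis), with arrays in columns by genotype, light and replicate and a black line at the median. The medians run from 0.12 to 0.19 on 5 rb10 arrays and from -0.22 to -0.07 on the WT arrays, and rb10 dark replicate 3 sits at -0.01. The arrays were not set to equal medians here.

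The comparison of genotypes after 1 h of light asks whether the mutant alters the expression of these genes in seedlings that have just met light. Of the 45 genes 15 rose in rb10 and 1 fell, while 9.72% of all tested probe sets rose and 9.47% fell, 19.2% in all. The 15 belong to 12 proteins and include 10 of 27 small subunit genes and 5 of 18 large subunit genes. The median change was 0.31, with 0.31 for the small and 0.30 for the large subunit, against -0.02 over all tested probe sets. The change was above 0 for 44 genes, with a range of -0.82 to 1.52, against 48.0% of all tested probe sets. On 30 of the 45 genes every rb10 array lay above every WT array, as did 18.9% of all tested probe sets, and with equal array medians on 19, against 12.2%.

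The count depends on single arrays and on scaling. It was 16 with all arrays and 22 (21 up and 1 down) without rb10 dark replicate 3, where 11.8% of all tested probe sets rose and 23.6% were called. It was 6 without rb10 light replicate 2, 8 without WT light replicate 3 and 9 without WT light replicate 2, against 12.2%, 13.3% and 14.1% of all tested probe sets called in those fits, so that 6 of 45 lies near the share of all probe sets. AT2G01250, AT2G40010, AT3G04840, AT4G25740, AT5G16130 and AT5G52650 were called in the fit without each array in turn. The other 10 lost the call without rb10 light replicate 2 (adjusted p = 0.0567 to 0.118). With the arrays set to equal medians, the median of all tested probe sets was -0.17, 6.64% of them rose and 21.8% were called. Of the 45 genes 7 rose and 1 fell, a smaller share called than among all tested probe sets, though a larger share that rose. The median over the 45 was then 0.16 and 36 were above 0, so that 8 genes changed sign. The median over the 45 lay 0.33 above that of all tested probe sets, and 44 of the 45 lay above the latter. This scaling shifts all probe sets of an array by the same amount, so it cannot alter either value and is no check of them.

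**Figure D2:**
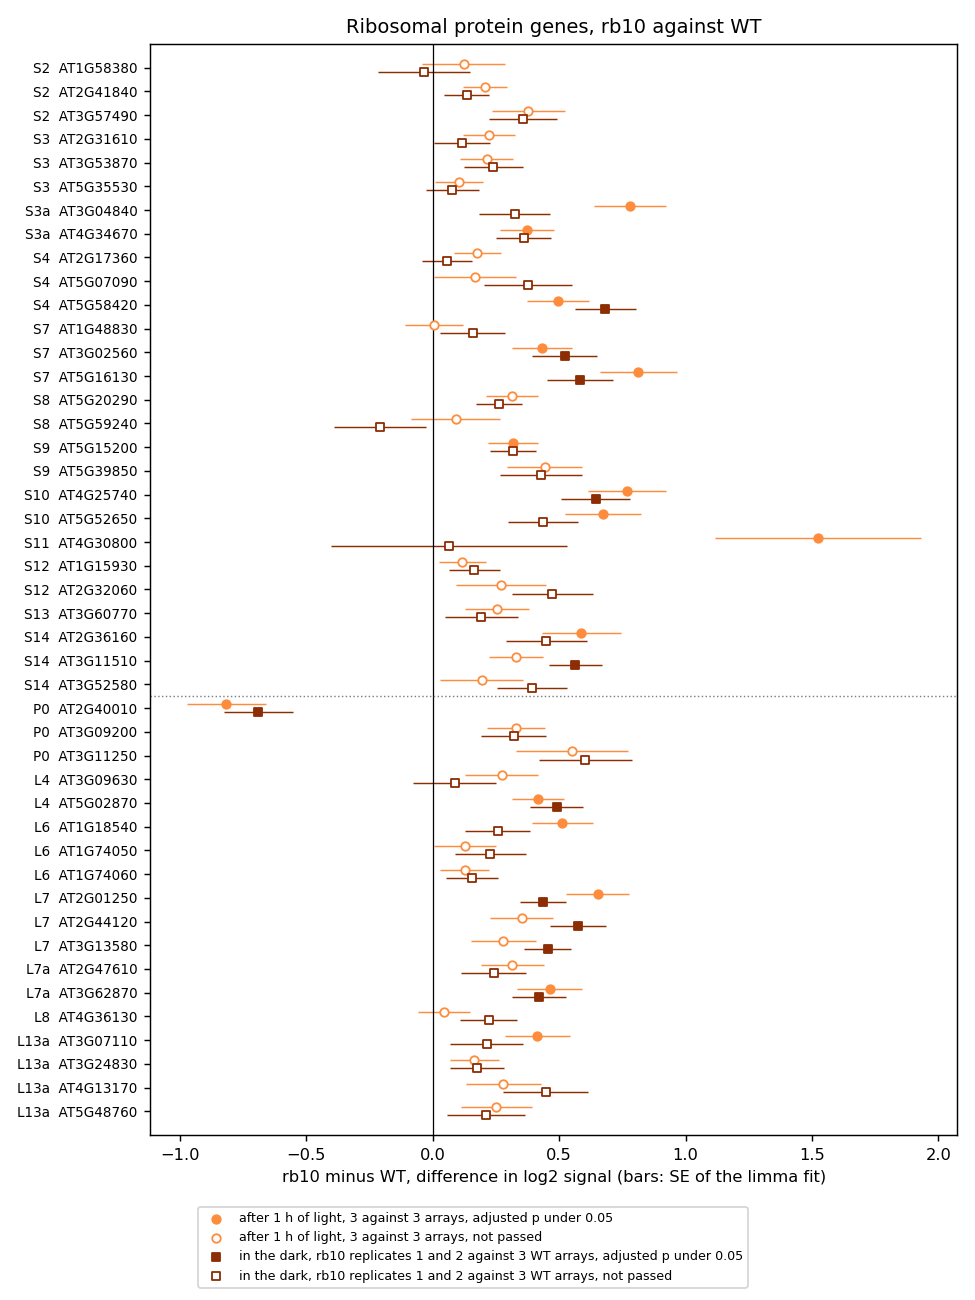
Change of each measured gene in rb10 against WT, as a difference in log2 signal (horizontal axis) with the SE of the limma fit, after light over 3 against 3 arrays (circles) and in the dark over rb10 replicates 1 and 2 against 3 WT arrays (squares), filled where the adjusted p is under 0.05. Small subunit genes are above the dotted line and large subunit genes below it. All but AT2G40010 lie above 0 after light, though 8 more lie below 0 with equal array medians. With rb10 dark replicate 3 included, 0 of the 45 genes passed in the dark.

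The 1 gene that fell encodes P0, the large subunit protein that anchors the stalk to which translation factors bind. AT2G40010 read 8.04, 8.09 and 7.89 in rb10 after light, against 8.93, 8.69 and 8.84 in WT after light. In the dark it read 8.78, 8.45 and 9.11 in rb10, against 9.39, 9.17 and 9.36 in WT. Every rb10 array lay below every WT array within each light condition, with rb10 dark replicate 3 the closest to WT. The gene changed by -0.82 after light (SE 0.16, adjusted p = 0.00524), and its second probe set, which read 6.03, 5.82 and 5.86 in rb10 against 6.88, 6.92 and 6.92 in WT, changed by -1.0 (SE 0.14, adjusted p = 0.000889). The other P0 genes ran the opposite way without passing the test. AT3G09200 read 10.64, 10.65 and 10.43 in rb10 after light, against 10.45, 10.14 and 10.14 in WT after light, with an overlap of 1 array each, and differed by 0.33 (SE 0.12, adjusted p = 0.0699). AT3G11250 read 8.05, 8.53 and 8.28 in rb10, against 7.65, 7.67 and 7.88 in WT, all rb10 arrays being higher, and differed by 0.55 (SE 0.22, adjusted p = 0.111). Without rb10 dark replicate 3, AT3G11250 passed (adjusted p = 0.0354).

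Among the other large subunit proteins, L4 lines the tunnel through which the new peptide leaves. Its gene AT5G02870 read 10.21, 10.36 and 10.08 in rb10 after light, against 9.81, 9.82 and 9.77 in WT after light, and rose by 0.42 (SE 0.10, adjusted p = 0.0164). Its paralogue AT3G09630 differed by 0.27 (SE 0.14, adjusted p = 0.224). The 3 genes of L7 showed the same pattern of 1 gene past the threshold. AT2G01250 read 11.32, 11.23 and 11.27 in rb10, against 10.67, 10.56 and 10.63 in WT, and rose by 0.65 (SE 0.12, adjusted p = 0.00503), a gap of several times the spread within either group. AT2G44120 differed by 0.35 (SE 0.12, adjusted p = 0.0716) and AT3G13580 by 0.28 (SE 0.13, adjusted p = 0.157), and both passed without rb10 dark replicate 3 (adjusted p = 0.0277 and 0.038).

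L6, L7a and L13a are further structural proteins of the large subunit. For L6, AT1G18540 read 9.02, 9.15 and 8.88 in rb10 after light, against 8.69, 8.37 and 8.45 in WT after light, and rose by 0.51 (SE 0.12, adjusted p = 0.0136). The rb10 and WT arrays did not overlap, while AT1G74050 and AT1G74060 both differed by 0.13 (adjusted p = 0.531 and 0.408). For L7a, AT3G62870 read 9.88, 9.75 and 9.78 in rb10, against 9.44, 9.27 and 9.31 in WT, and rose by 0.46 (SE 0.13, adjusted p = 0.0284). AT2G47610, the other L7a gene, differed by 0.32 (SE 0.13, adjusted p = 0.107). For L13a, AT3G07110 read 10.41, 10.38 and 10.27 in rb10, against 10.16, 9.9 and 9.76 in WT, and rose by 0.41 (SE 0.13, adjusted p = 0.046). The arrays of both genotypes stood apart here too, but the call is lost with 1 WT dark array fewer (adjusted p = 0.0546 to 0.061). The other L13a genes differed by 0.16 (AT3G24830), 0.28 (AT4G13170) and 0.25 (AT5G48760), none past the threshold. L8, which lies near the catalytic centre, was measured by AT4G36130 alone, whose groups overlapped and which differed by 0.05 (SE 0.10, adjusted p = 0.806).

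In the small subunit, S7 gave both a large rise and the smallest difference of the list. AT5G16130 read 10.55, 10.64 and 10.76 in rb10 after light, against 9.88, 9.76 and 9.87 in WT after light, and rose by 0.81 (SE 0.15, adjusted p = 0.00468). AT3G02560 read 11.02, 10.88 and 10.63 in rb10, against 10.53, 10.31 and 10.39 in WT, and rose by 0.43 (SE 0.12, adjusted p = 0.029). For both genes all rb10 arrays were above all WT arrays. AT1G48830 read 9.72, 9.53 and 9.38 in rb10, against 9.55, 9.42 and 9.66 in WT, with the groups interleaved, and differed by 0.01 (SE 0.12, adjusted p = 0.982).

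S10, S3a and S14 lie at the head and platform of the small subunit, around the path of the messenger RNA. Both measured S10 genes rose. AT4G25740 read 9.68, 9.78 and 9.66 in rb10 after light, against 8.81, 8.99 and 9.02 in WT after light, and rose by 0.77 (SE 0.15, adjusted p = 0.00634). AT5G52650 read 9.3, 9.34 and 9.31 in rb10, against 8.51, 8.51 and 8.91 in WT, and rose by 0.67 (SE 0.15, adjusted p = 0.0109). The rb10 arrays agreed closely in both genes and cleared the highest WT array. Both S3a genes rose too. AT3G04840 read 9.37, 9.01 and 9.06 in rb10, against 8.53, 8.21 and 8.35 in WT, and rose by 0.78 (SE 0.14, adjusted p = 0.00404). AT4G34670 read 10.98, 10.94 and 11.04 in rb10, against 10.76, 10.55 and 10.53 in WT, and rose by 0.37 (SE 0.11, adjusted p = 0.0337). The arrays of both genotypes did not overlap in either gene. For S14, AT2G36160 read 9.88, 9.96 and 10.02 in rb10, against 9.44, 9.24 and 9.42 in WT, and rose by 0.59 (SE 0.16, adjusted p = 0.0241), while AT3G11510 differed by 0.33 (SE 0.11, adjusted p = 0.0523, and 0.0308 without rb10 dark replicate 3) and AT3G52580 by 0.19 (SE 0.16, adjusted p = 0.464).

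S4 and S9 bind the body of the small subunit, where S9 lines the entrance of the messenger RNA channel. For S4, AT5G58420 read 9.43, 9.6 and 9.54 in rb10 after light, against 9.04, 9.02 and 9.02 in WT after light, and rose by 0.50 (SE 0.12, adjusted p = 0.017). The groups stood well apart, while AT2G17360 differed by 0.18 (SE 0.09, adjusted p = 0.219) and AT5G07090 by 0.17 (SE 0.16, adjusted p = 0.533). For S9, AT5G15200 read 11.24, 11.26 and 11.24 in rb10, against 10.84, 11 and 10.95 in WT, and rose by 0.32 (SE 0.10, adjusted p = 0.0474). Its paralogue AT5G39850 read 9.57, 9.82 and 9.96 in rb10, against 9.16, 9.34 and 9.51 in WT, and differed by 0.44 (SE 0.15, adjusted p = 0.0609). In both S9 genes every rb10 array was higher, and AT5G39850, which did not pass, had the larger difference and the larger SE.

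The largest difference came from a dim probe set. The S11 gene AT4G30800 read 5.47, 5.76 and 4.31 in rb10 after light, against 3.35, 4.03 and 3.59 in WT after light, and rose by 1.52 (SE 0.41, adjusted p = 0.0245). The groups did not overlap, but the third rb10 array was close to WT, the mean of 4.38 over all arrays lies under the lower quartile of tested probe sets, and the call is lost without rb10 light replicate 1 or 2 or WT light replicate 1 or 3 (adjusted p = 0.0675 to 0.0929). The other dim gene, AT5G59240 of S8, differed by 0.09 (SE 0.18, adjusted p = 0.77).

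Of the small subunit genes not yet described, none passed after light with all arrays. S2 and S3 hold the entrance of the messenger RNA channel. Of S2, AT2G41840 differed by 0.21 (SE 0.09, adjusted p = 0.125), AT3G57490 by 0.38 (SE 0.14, adjusted p = 0.0923, and 0.0472 without rb10 dark replicate 3) and AT1G58380 by 0.12 (SE 0.17, adjusted p = 0.667). AT1G58380 is uncertain because near-identical loci lie in shared probe sets. The S3 genes AT2G31610, AT3G53870 and AT5G35530 differed by 0.22, 0.21 and 0.10 with adjusted p of 0.158, 0.19 and 0.503. AT5G20290 of S8 differed by 0.31 (SE 0.10, adjusted p = 0.0543, and 0.021 without rb10 dark replicate 3). S12 of the beak region gave 0.12 for AT1G15930 and 0.27 for AT2G32060, and AT3G60770 of S13 gave 0.25, with adjusted p of 0.438, 0.337 and 0.195.

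In the dark, with the array labelled rb10 dark replicate 3 included, limma called 0 of the 45 genes, and 16 had an unadjusted p under 0.05. Over all 17481 tested probe sets 0.00572% were called, and 2613 had an unadjusted p under 0.05. The median change was 0.22 (0.22 in the small and 0.21 in the large subunit), against -0.02 over all tested probe sets, and 42 genes were above 0, against 46.6% of all tested probe sets. With equal array medians the median was 0.15 and 38 were above 0. With the values as deposited, the 3 below 0 were AT2G40010 of P0, the dim AT4G30800 of S11 and the dim AT5G59240 of S8. On 14 genes every rb10 array lay above every WT array (7.45% of all tested probe sets), and with equal array medians on 10 (5.45%). Rb10 dark replicate 3 was the lowest of the rb10 dark arrays on 35 of the 45 genes, and on 26 it lay within or below the range of the WT dark arrays.

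Rb10 dark replicate 3 was singled out in these data because it read like WT, so leaving it out favours larger differences between genotypes. Over all tested probe sets, leaving it out took the calls in the dark from 1 to 1761. Without that array, 10 of the 45 genes rose in the dark and 1 fell, against 5.68% of all tested probe sets that rose and 4.39% that fell, 10.1% in all. The median was 0.32, with 0.32 in the small and 0.25 in the large subunit, 5 genes of each subunit rose, and 42 genes were above 0, against 45.8% of all tested probe sets. Rb10 dark replicates 1 and 2 both exceeded every WT dark array on 36 genes (20.1% of all tested probe sets), and with equal array medians on 23 (13.4%). Setting the 11 arrays to equal medians left 8 genes that rose and 1 that fell, against 4.22% and 8.90% of all tested probe sets, 13.1% in all, with a median over the 45 of 0.20 and 38 above 0. All 10 also rose after light in the same fit, which rests on other arrays for the difference but shares the estimate of spread. With all arrays 7 of them rose after light. How many of all tested probe sets rose in both conditions is not given here, so this overlap is not read as particular to these genes.

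The gene with the largest difference in the dark, with all arrays, was AT5G58420 of S4. It read 9.75, 9.6 and 9.38 in rb10 dark, against 9.1, 8.79 and 9.08 in WT dark, with rb10 dark replicate 3 nearest to WT but still above it. It differed by 0.59 with all arrays (SE 0.12, adjusted p = 0.227) and rose by 0.68 without that array (SE 0.12, adjusted p = 0.0069). S10 and S7 gave similar values. AT4G25740 of S10 read 9.77, 9.54 and 9.19 in rb10 dark, against 8.87, 8.93 and 9.24 in WT dark, and AT5G16130 of S7 read 10.75, 10.72 and 10.25, against 9.94, 10.18 and 10.35. In both genes rb10 dark replicate 3 fell inside the WT range while the other rb10 arrays lay above it. AT4G25740 differed by 0.49 with all arrays (adjusted p = 0.255) and rose by 0.64 without that array (SE 0.14, adjusted p = 0.0178), and AT5G16130 differed by 0.42 (adjusted p = 0.27) and rose by 0.58 (SE 0.13, adjusted p = 0.0216).

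Also without rb10 dark replicate 3, AT3G02560 of S7 rose by 0.52 (adjusted p = 0.0325) and AT3G11510 of S14 by 0.56 (adjusted p = 0.00959). In the large subunit all 3 L7 genes rose, AT2G01250 by 0.44 (adjusted p = 0.0152), AT2G44120 by 0.58 (adjusted p = 0.0108) and AT3G13580 by 0.45 (adjusted p = 0.0156). AT3G13580 read 11.22, 11.11 and 10.7 in rb10 dark, against 10.71, 10.71 and 10.72 in WT dark, so that rb10 dark replicate 3 matched the WT arrays. AT5G02870 of L4 rose by 0.49 (adjusted p = 0.0172) and AT3G62870 of L7a by 0.42 (adjusted p = 0.0363). AT2G40010 of P0 fell by 0.69 (SE 0.14, adjusted p = 0.0126), and its second probe set fell by 0.66 (adjusted p = 0.0113), while with all arrays both changed by -0.53 (adjusted p = 0.251 and 0.242).

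Over both light conditions together, 21 of the 45 genes rose in rb10 and 1 fell, against 10.9% of all tested probe sets that rose and 21.3% called in either direction. The count was 26 up and 1 down without rb10 dark replicate 3 (14.3% of all tested probe sets up and 28.4% called), and 13 up and 1 down with equal array medians (7.64% of all tested probe sets up and 25.6% called). The 21 were 12 of 27 small subunit genes and 9 of 18 large subunit genes, and the median change was 0.27 in the small and 0.29 in the large subunit. No difference between the subunits was tested, so these medians do not show whether the subunits differed. Between replicate arrays the median over the 45 genes had a pooled SD of 0.066. That SD can hold shifts common to both subunits and is no measure of the spread of their difference.

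One hour of light moved these genes little in either genotype. In WT limma called 0 of 45, and 2 had an unadjusted p under 0.05, against 6.89% of all tested probe sets called. Of all 17481 tested probe sets, 3302 had an unadjusted p under 0.05 in WT. The median change was -0.04, against -0.06 over all tested probe sets, and 0.002 with equal array medians. In rb10 it called 1 of 45, which fell, against 7.17% of all tested probe sets called and 3.75% that fell, and the median change was 0.04 (-0.03 without rb10 dark replicate 3), against -0.03 over all. The called gene was again AT2G40010 of P0, which read 8.04, 8.09 and 7.89 in rb10 after light, against 8.78, 8.45 and 9.11 in rb10 in the dark. All light arrays were below all dark arrays, and the gene fell by 0.77 (SE 0.16, adjusted p = 0.0119), or by 0.61 without rb10 dark replicate 3 (SE 0.14, adjusted p = 0.027, with 6.34% of all tested probe sets called). The call is lost without rb10 light replicate 3 (adjusted p = 0.0516). Its second probe set fell by 0.88 (SE 0.14, adjusted p = 0.00264). Light again called 1 of the 45 genes in rb10 and 0 in WT with equal array medians. In WT the same gene read 8.93, 8.69 and 8.84 after light, against 9.39, 9.17 and 9.36 in the dark, also without overlap, and changed by -0.48 (SE 0.16, adjusted p = 0.103, and 0.0359 without rb10 dark replicate 3, with 8.78% of all tested probe sets called).

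The difference between the light effects of both genotypes passed the test for 0 of 45 genes in limma, with 2 at an unadjusted p under 0.05, against 2.17% of all tested probe sets called. Of all 17481 tested probe sets, 2206 had an unadjusted p under 0.05 for this difference. For AT2G40010 the difference of light effects was -0.29 (SE 0.22, adjusted p = 0.656), so its light effects in rb10 and WT were not shown to differ. The 2 genes at an unadjusted p under 0.05 were AT3G04840 of S3a, at 0.57 (SE 0.20, adjusted p = 0.24), and the dim AT4G30800 of S11, at 1.60 (SE 0.58, adjusted p = 0.253).

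The paralogues of 1 protein among the 45 genes were then compared with each other on the same array, which removes the scaling of the array. For each of 37 pairs in 16 proteins, the log2 signal of the first gene minus that of the second was compared between rb10 and WT by an exact two-sided permutation of genotype within each light condition. The test has 400 arrangements and a smallest p of 0.005, and 9 pairs had an unadjusted p under 0.05. None passed after adjustment over the 37 pairs, where the smallest adjusted p was 0.0617, and the same held without rb10 dark replicate 3 (11 pairs unadjusted, 0 adjusted). With a smallest p of 0.005, 1 pair alone could not pass this adjustment, whatever its difference. Several pairs at that smallest p would be needed, so the adjusted result does not show that no pair differed. Pairs of 1 protein share genes, so that they are not independent of each other.

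Of these, 3 pairs reached the smallest possible exact p of 0.005. In P0, AT2G40010 minus AT3G09200 was -2.57 ± 0.02 in rb10 after light and -1.42 ± 0.12 in WT after light, and -1.76 ± 0.38 in rb10 in the dark and -0.93 ± 0.04 in WT in the dark (SD, n = 3 each). The difference between genotypes was thus -1.15 after light and -0.83 in the dark, and the groups did not overlap after light. In S4, AT2G17360 minus AT5G58420 differed between genotypes by -0.32 after light and -0.56 in the dark, the single genes having differed by 0.18 and 0.50 after light. In S7, AT1G48830 minus AT3G02560 differed by -0.43 after light and -0.34 in the dark (exact p = 0.01 without rb10 dark replicate 3). AT1G48830 minus AT5G16130, from the same protein, differed by -0.81 after light and -0.30 in the dark (exact permutation p = 0.01), and AT2G40010 minus AT3G11250 in P0 by -1.37 and -0.87 (exact permutation p = 0.01).

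**Figure D3:**
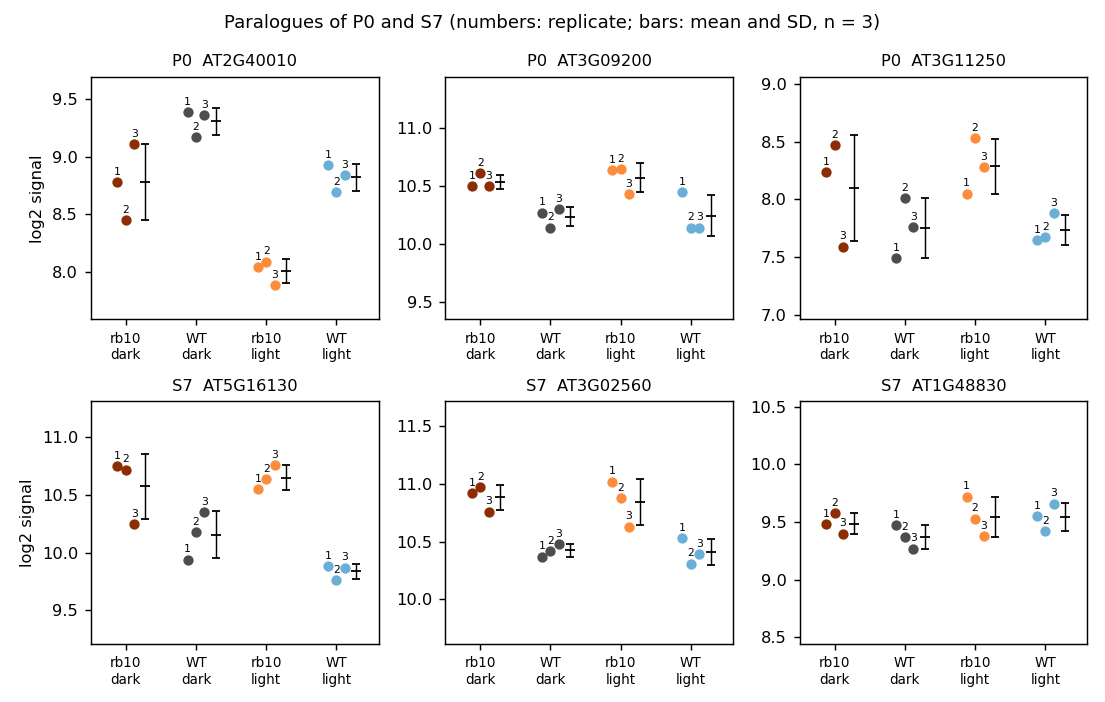
Log2 signal on each array (points, numbered by replicate) of the 3 genes of P0 and of the 3 measured genes of S7, by genotype and light, with the mean and SD of each group (n = 3). AT2G40010 is lower on every rb10 array of a light condition while the other P0 genes are not, and AT1G48830 overlaps between genotypes while both other S7 genes are higher in rb10 after light.

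Pairs of S14, S4 and L6 also had an unadjusted exact p under 0.05. AT3G11510 and AT2G36160, each minus AT3G52580, differed between genotypes by 0.13 and 0.39 after light and by 0.27 and 0.12 in the dark (exact permutation p = 0.015 and 0.025, and 0.025 and 0.05 without rb10 dark replicate 3). AT5G07090 minus AT5G58420 in S4 differed by -0.33 after light and -0.31 in the dark (exact permutation p = 0.02), and AT1G18540 minus AT1G74060 in L6 by 0.38 and 0.08 (exact permutation p = 0.04, or 0.08 after a second quantile normalization). The proteins with a single pair, S3a, S8, S9, S10, S12, L4 and L7a, did not reach an exact p under 0.05 with all arrays. Their differences between genotypes after light were 0.41 in S3a, 0.22 in S8, -0.13 in S9, 0.10 in S10, -0.15 in S12, -0.14 in L4 and -0.15 in L7a, with exact permutation p over both light conditions of 0.17, 0.175, 0.255, 0.06, 0.22, 0.05 and 0.07 in that order. The S3a pair, AT3G04840 minus AT4G34670, did not overlap between genotypes after light but differed by -0.08 in the dark. Without rb10 dark replicate 3 the L7a pair and the S2 pairs of AT2G41840 and AT1G58380 with AT3G57490 passed unadjusted (exact permutation p = 0.03, 0.035 and 0.04), and after a second quantile normalization the L4 pair did (exact permutation p = 0.02). A p that misses the threshold does not show that paralogues acted alike.

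**Figure D4:**
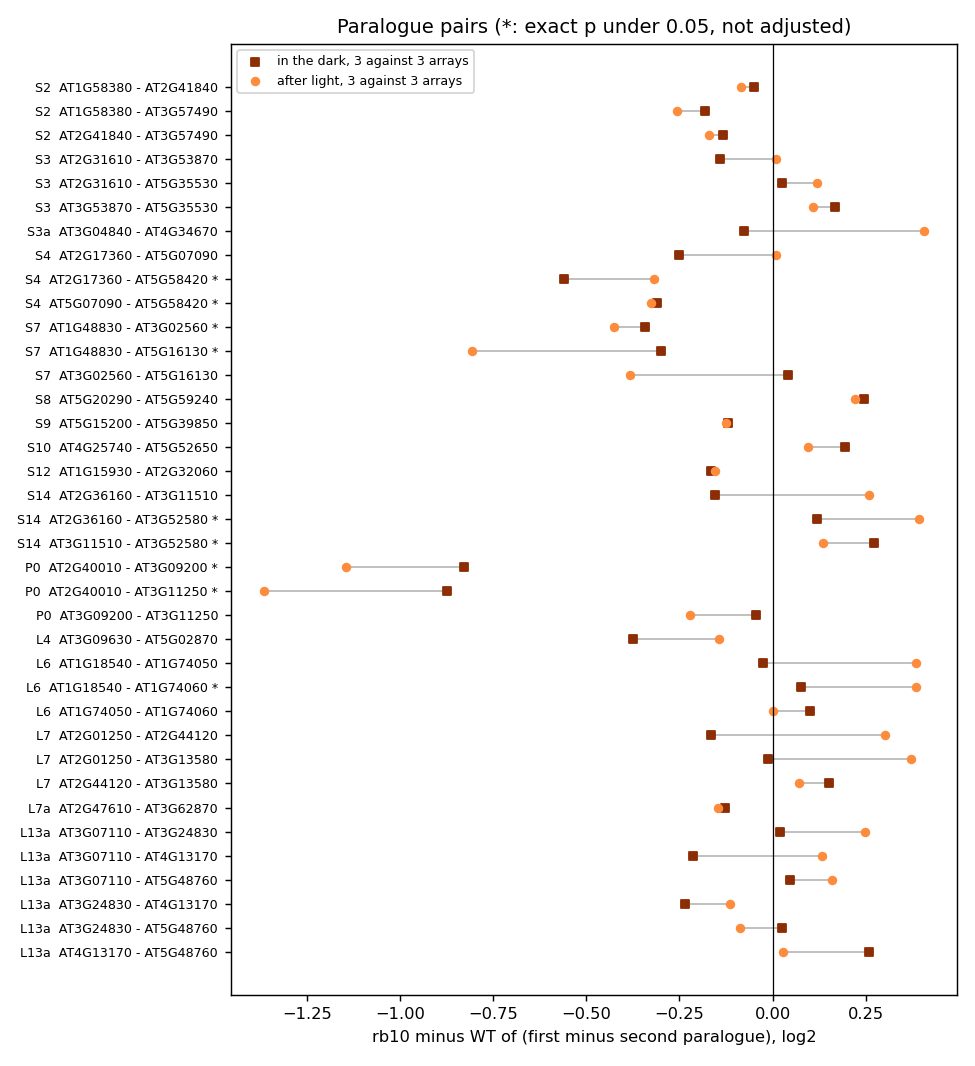
For each of the 37 paralogue pairs (rows), the difference in log2 signal between the first and the second gene, as rb10 minus WT, in the dark (squares) and after light (circles), with an asterisk for an unadjusted exact p under 0.05. The P0 pairs with AT2G40010 lie between -1.37 and -0.83, and the others lie between -0.81 and 0.41.

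Other genes of translation were set beside these 45. Of 171 further loci of cytosolic ribosomal proteins, 104 had a probe set of their own. After light 19 of these rose in rb10 and 0 fell by limma, against 9.72% and 9.47% of all tested probe sets. An unadjusted p under 0.05 in either direction was reached by 49, against 5680 of all 17481 tested probe sets. The median change of the 104 was 0.29 with 93 above 0. With equal array medians 7 of the 104 rose, close to the 6.64% of all tested probe sets that rose, the median was 0.14 and 77 were above 0. The 19 that rose with the values as deposited were 18 of 71 large subunit genes and 1 of 33 small subunit genes, AT5G61170 of S19 (0.52, SE 0.12, adjusted p = 0.0142). The median change was 0.32 in the large and 0.23 in the small subunit, and no difference between subunits was tested. The largest called changes were 0.79 for AT1G15250 and 0.75 for AT3G16080, both of L37 (SE 0.22 and 0.17, adjusted p = 0.0305 and 0.0123), and 0.71 for AT5G22440 of L10a (SE 0.19, adjusted p = 0.0258). AT3G16080 read 11.01, 10.9 and 10.75 in rb10 after light, against 10.07, 9.95 and 10.38 in WT after light, without overlap. AT1G77940 of L30 rose by 0.62 (SE 0.19, adjusted p = 0.0473) and AT2G37190 of L12 by 0.59 (SE 0.14, adjusted p = 0.0162). In the dark limma called 0 of 104 with all arrays. An unadjusted p under 0.05 was reached by 47, against 2613 of all 17481 tested probe sets. Without rb10 dark replicate 3 limma called 17 up and 1 down, against 5.68% and 4.39% of all tested probe sets. The largest rise there was 1.03 for AT4G00810 of P1, a protein of the stalk that P0 anchors (SE 0.25, adjusted p = 0.0326), and the fall was that of AT5G09490 of S15, at -0.77 (SE 0.15, adjusted p = 0.0109). Light called 0 of the 104 in rb10 and 0 in WT. An unadjusted p under 0.05 was reached by 5 and 3, against 3489 and 3302 of all 17481 tested probe sets.

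Ribosomal proteins of the plastid serve the separate translation system of chloroplasts, and with all arrays as deposited none of those measured was called. Of 30 loci 6 were measured, and limma called 0 after light, with 1 at an unadjusted p under 0.05, AT5G65220 (-0.34, SE 0.12, adjusted p = 0.0758, called without rb10 dark replicate 3), a median of -0.12 and 2 above 0. With equal array medians AT5G65220 was called too (-0.49), and the median was -0.27. Among 7 measured translation factors, AT1G57720, a subunit of the elongation factor eEF1B, which recharges eEF1A with GTP, read 10.47, 10.8 and 10.84 in rb10 after light, against 10.21, 10.25 and 10.44 in WT after light, and rose by 0.41 (SE 0.13, adjusted p = 0.0488). Its groups did not overlap, and the median over the 7 was 0.20, with 6 above 0. With equal array medians none of the 7 was called, the median was 0.05 and 4 were above 0. A different eEF1B gene, AT5G12110, responded to light by more than any of the 45. It read 12.01, 11.83 and 11.57 in rb10 after light, against 8.51, 8.56 and 7.86 in rb10 in the dark, and 11.81, 11.63 and 11.59 in WT after light, against 7.09, 7.87 and 7.92 in WT in the dark. It rose by 3.50 in rb10 (SE 0.24, adjusted p = 1.63e-05) and by 4.05 in WT (SE 0.24, adjusted p = 3.26e-06), without a called difference between the genotypes' light effects (-0.55, SE 0.34, adjusted p = 0.563). None of the 4 measured reference genes passed the test between genotypes after light with all arrays, although 2 had an unadjusted p under 0.05: CACS differed by -0.29 (adjusted p = 0.0834), GAPC2 by 0.29 (adjusted p = 0.0588, called without rb10 dark replicate 3), SAND by -0.11 (adjusted p = 0.511) and TIP41 by 0.09 (adjusted p = 0.559). CACS and GAPC2 thus differed by about as much as the median ribosomal protein gene, 1 in each direction. Of all 17481 tested probe sets, 5680 had an unadjusted p under 0.05 between genotypes after light. With equal array medians CACS was called (-0.44), GAPC2 differed by 0.14, TIP41 by -0.06 and the median of the 4 was -0.16, while a second quantile normalization called GAPC2 (0.31).

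**Figure D5:**
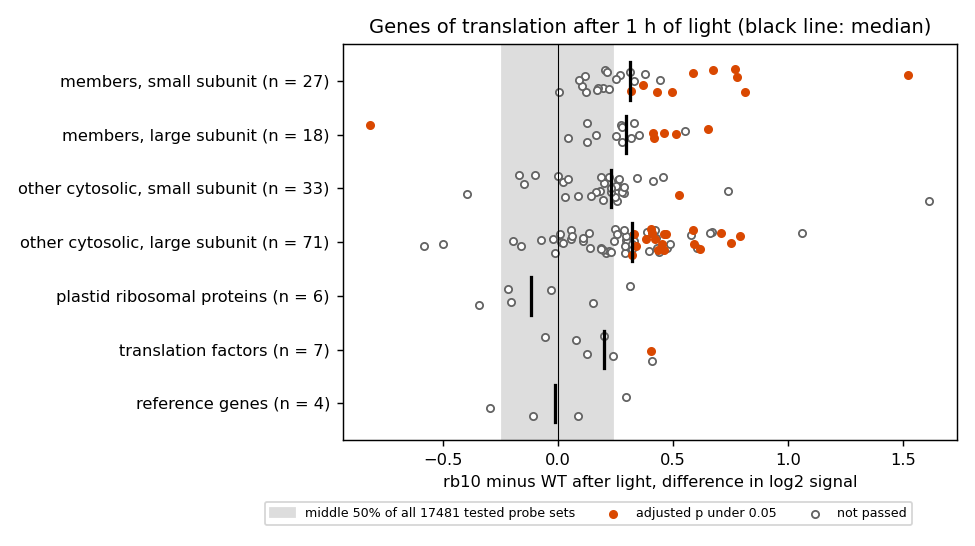
Change in rb10 against WT after light, as a difference in log2 signal (horizontal axis), of each measured gene in 7 groups of genes, filled where the adjusted p is under 0.05, with a black line at the median and a grey band over the middle 50% of all tested probe sets. The medians of the cytosolic groups lie at 0.31, 0.30, 0.23 and 0.32, that of the plastid group at -0.12 and that of the reference genes at -0.01.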

How the data were processed

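The authors deposited a table of log2 signals, 1 row for each probe set and 1 column for each of the 12 arrays. Per the submitters' processing notes, the named methods are RMA and GCRMA. Both subtract background, put the arrays on a common scale and combine the probes of a set. The notes give no version and do not say which method gave these values. The build and annotation are not given in the sources used here. Values were used as deposited, with no filter. Array signal gives no counts, so the number of arrays limits the precision.

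Probe sets were paired with genes by gene identifiers in GEO's platform annotation and a TAIR10.1 gene table that served for names alone. Of 38408 probe sets, 16722 were paired with 1 gene and 759 with several. These 17481 were tested.

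In R 4.3.3, limma 3.58.1 fitted the 4 group means with 8 residual and 2.79 prior degrees of freedom and gave 6 comparisons, with Benjamini-Hochberg adjustment over all tested probe sets. Tested on simulated data with 200 changed of 17481 probe sets, the genotype comparison after light recovered 8.96%, 62.7% and 97% of changes of 0.5, 1 and 2 in log2, with 7 false calls. In the data this comparison called far more probe sets, 3355 of 17481. The p needed for a call thus differs, and these rates do not give the recovery in the data. Paralogue pairs were tested by exact permutation in Python 3.11.15, and figures were drawn with matplotlib 3.10.9.

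The members and the lists were chosen with earlier results of these data known, so no count over them is independent support. Every measured member was named. From the other lists the called genes were named, at most the 5 with the largest change per list and comparison, or else the 1 with the smallest p, with RAPTOR1B, RAPTOR1A and the reference genes always. How the probes separate close paralogues is not given in the sources used here.

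Same-numbered arrays of different groups had deviations that correlated between -0.043 and 0.073, and arrays with different numbers between -0.06 and 0.054. These low values do not settle whether the replicate numbers pair samples. The main fits used no pairing, and a replicate block was fitted as an alternative. The results were recomputed without each array in turn, with the mean of a gene's probe sets, with equal array medians, after a second quantile normalization, with a trended and robust prior, with a replicate block, with only the groups compared in the fit, with all probe sets tested, and without the 25% of tested probe sets with the lowest mean.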

Additional observations from a re-analysis of the deposited data

How the results depend on the processing

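No alternative turned the direction of a called gene. After light 8 of the 45 genes were called with equal array medians, with a median of 0.16, and 14 over both light conditions with a median of 0.17. The median in the dark was 0.15 (9 genes called where rb10 dark replicate 3 was left out too, a setting chosen after seeing the data), and that for the difference of light effects 0.0072. With the groups of the comparison alone in the fit, light in rb10 called 0 of the 45 genes, against 580 of all 17481 tested probe sets. Across the fits that left out 1 array, calls over all 17481 tested probe sets ranged from 2141 to 4120 after light. They ranged from 0 to 1761 in the dark and from 2464 to 4956 over both conditions. For light they ranged from 782 to 1154 in rb10 and from 839 to 1534 in WT. Of the 45 genes, those called ranged from 6 to 22 after light, from 0 to 11 in the dark and from 15 to 27 over both conditions. For light in rb10 and in WT they ranged from 0 to 1. The highest counts came without rb10 dark replicate 3, as did the 1 gene for light in WT, which was also called without rb10 dark replicate 2. In rb10 the gene was lost without rb10 light replicate 3. The median change ranged from 0.28 to 0.35 after light, from 0.16 to 0.32 in the dark, from 0.25 to 0.32 over both, from -0.09 to 0.00 for light in WT, from -0.031 to 0.075 for light in rb10, and from 0.013 to 0.12 for the difference of light effects. Paralogue pairs with an exact p under 0.05 ranged from 8 to 12.

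The replicate block called 15 genes after light and 18 over both conditions, against 3181 and 3496 of all 17481 tested probe sets. It lost AT3G07110 and AT5G15200 after light (adjusted p = 0.0708 and 0.0627). It left 6 paralogue pairs at p under 0.05, where its smallest exact p is 0.0312. The cause of these shifts was not tested. Quantile normalization again, the filter on dim probe sets, the test of every probe set, the other prior and the mean of a gene's probe sets gave counts within 1.5 times those reported. The planned count of promoter motifs was not run, because it needs promoter sequences that were not used here. With 3 arrays a group the precision is limited, and a gene that did not pass may still differ.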
